A study of Mus musculus with 4 samples.

Results

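Heme is the iron-porphyrin group that cytochrome P450s, catalase and the respiratory chain need to work. Its synthesis starts in the mitochondrion, where ALAS1 joins glycine to succinyl-CoA, passes through the cytosol for the porphyrin-building steps, and ends in the mitochondrion, where FECH inserts iron. In liver most new heme goes to microsomal P450s, ALAS1 is the rate-limiting enzyme, and heme itself holds ALAS1 down. Heme is broken down by heme oxygenase to biliverdin, carbon monoxide and iron, and biliverdin reductases make bilirubin from biliverdin.

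The members were 9 genes of the deposited table, picked by gene name out of 56748: 7 enzymes of heme synthesis (Alas1, Alad, Uros, Urod, Cpox, Ppox and Fech) and 2 of heme breakdown (Hmox1 and Blvrb). The samples were livers of NSG mice, an immunodeficient strain, with the genotype labelled WT; age and sex are not given in the labels. One group of 2 mice was untreated, and the labels name no vehicle. The other group of 2 mice received JIB-04, an inhibitor of Jumonji histone demethylases, by gavage at 55 mg/kg, 2 times weekly for 5 doses. The libraries represent separate mice. The p-values and intervals of genes rest on the spread between these 4 animals, combined by the test with the spread of other genes.

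Recovered reads ranged from 36469514 to 43283827 per library. Mitochondrially encoded genes took 3.46% to 4.52% of them. Albumin (Alb), the main secreted product of hepatocytes, had the highest value of the 8 hepatocyte markers, between 22910 and 46858 FPKM. Alb was chosen after its values were seen, and was lower in both JIB-04 libraries (limma adjusted p = 0.144). Of the 8 markers 7 had lower and 1 a higher mean in JIB-04 liver, and 0 were called, beside 2.14% of all tested genes. At an unadjusted limma p under 0.05 there were 3, all lower, where 15.5% of all tested genes reached that p. They summed to 66446 and 63773 FPKM in untreated and 46725 and 39010 in JIB-04 libraries, with Alb the largest part. Of 6 lymphocyte markers 4 were listed at 0 in all 4 libraries. FPKM is a count of fragments divided by gene length and library depth, so levels of different genes can be set side by side.

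None of the 9 members passed the test between JIB-04 and untreated liver, which was limma on log2(FPKM + 1) with a Benjamini-Hochberg adjusted p under 0.05 over 10819 genes. By the same test 2.14% of all tested genes were called. The lowest adjusted p among members was that of Alas1 and Blvrb, 0.0754 for each, and both had higher values in both treated animals. At an unadjusted p under 0.05 there were 3 members, Alas1, Blvrb and Cpox, all higher, where 15.5% of all tested genes reached that p and 9.06% did so upward. Voom on recovered reads called 1 member, Blvrb (adjusted p = 0.0379), and 3.7% of all genes. The groups did not overlap for 3 members in the upward direction and for 1, Fech, in the downward direction, while 46.4% of all tested genes had no overlap, 24.6% upward and 21.8% downward. The smallest p of an exact permutation test of 2 animals against 2 is 0.333, and limma was used for genes. All 9 passed the filter on low values, a mean of at least 1 FPKM.

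**Figure D1:**
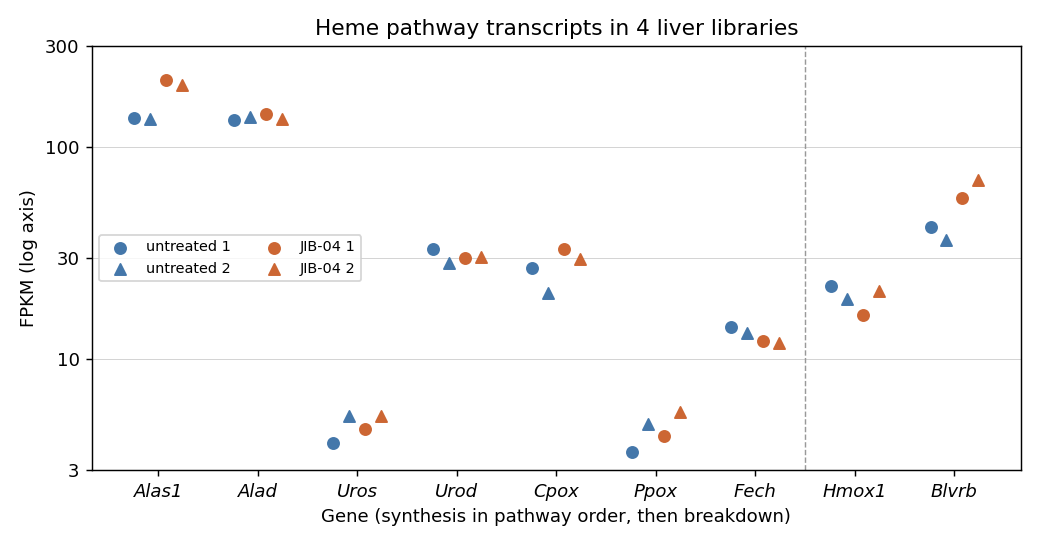
FPKM on a log axis for the 9 members in the 4 libraries, blue for untreated and orange for JIB-04, with circles for animal 1 and triangles for animal 2 of each group. Alas1, Cpox and Blvrb have both JIB-04 points above both untreated points, Fech has both below, and the other 5 overlap.

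The start-site regions of 3 members are shown because Alas1 and Blvrb had the lowest p and Alad, at the same untreated level as Alas1, had groups that overlapped. RefSeq windows (build GRCm38.p6, 250 bases before to 50 after a start site) were searched for 7 members, 11 windows in all. For each of the 3, the 250 bases before the start site are printed from the window with the most CpG pairs: 44 in Alas1, 33 in Alad and 20 in Blvrb. Capitals mark letters matching a searched motif on either strand. The Alas1 stretch is chr9:106247731-106247980 on the minus strand, the Alad stretch chr4:62519910-62520159 on the minus strand, and the Blvrb stretch chr7:27447728-27447977 on the plus strand.
Alas1: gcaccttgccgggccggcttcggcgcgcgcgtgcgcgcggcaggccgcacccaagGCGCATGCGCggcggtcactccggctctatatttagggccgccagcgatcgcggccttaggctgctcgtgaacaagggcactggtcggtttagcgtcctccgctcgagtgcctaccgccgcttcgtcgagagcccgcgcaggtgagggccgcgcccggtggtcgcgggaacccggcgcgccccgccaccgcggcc
Alad: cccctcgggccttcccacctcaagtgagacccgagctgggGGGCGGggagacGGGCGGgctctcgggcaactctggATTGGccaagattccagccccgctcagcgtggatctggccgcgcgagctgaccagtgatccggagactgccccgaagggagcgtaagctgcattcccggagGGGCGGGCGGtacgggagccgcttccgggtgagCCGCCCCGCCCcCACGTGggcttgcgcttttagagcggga
Blvrb: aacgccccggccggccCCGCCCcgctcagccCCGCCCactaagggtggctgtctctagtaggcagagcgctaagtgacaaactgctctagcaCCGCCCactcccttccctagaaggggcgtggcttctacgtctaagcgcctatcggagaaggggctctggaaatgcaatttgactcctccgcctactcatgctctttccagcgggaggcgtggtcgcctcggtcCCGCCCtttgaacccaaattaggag

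In Alas1 the capitals are CATGCGC and its reverse complement overlapping in a palindrome, 195 bases before the start site. These letters form the core of the site of NRF1, a factor of mitochondrial genes, and were searched only after the window had been seen. CATGCGC was in both windows of Alas1, which overlap each other, and in no window of the other members searched. It was in 3.91% of all 32851 windows. In Alad the capitals are GC boxes (GGGCGG), 1 CCAAT and the E-box CACGTG 28 bases before the start. In Blvrb they are GC boxes. The E-box lay in windows of 3 members (Alad, Urod and Uros; 4 of 11 windows) and in 7.15% of all windows, the GC box in 7 of 11 and 35.7%, and CCAAT in 4 of 11 and 37.4%. The NRF1 half-site TGCGCA was in the window of Cpox alone (7.76% of all windows). None of the 11 windows held the antioxidant response element TGACNNNGC (12.4% of all windows) or the cAMP response element TGACGTCA (1.79%). The receptor half-site AGGTCA (16.3%) and TATAAA (13.6%) were also absent from them. Hmox1 and Fech were not searched, so these counts say nothing of their start sites. A match is a description of letters and not a bound site.

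Alas1 (ENSMUSG00000032786, chromosome 9, 106110654 to 106125853, minus strand, GRCm39) had 138 FPKM in untreated 1, 135 in untreated 2, 208 in JIB-04 1 and 197 in JIB-04 2. Values below follow this order. Both treated animals were above both untreated ones, and the animals of a group lay close together. The means were 136 ± 1.92 and 203 ± 7.66 FPKM (SD, n = 2), a 1.48-fold ratio. The log2 change was 0.57 (SE 0.123, 95% interval 0.27 to 0.86, limma adjusted p = 0.0754). It rested on 31208 and 31515 reads in untreated and 55036 and 44685 in JIB-04 libraries. In bulk liver, fewer cells of a type and less RNA per cell cannot be told apart. Alas1 passed in 1 of 16 alternatives, the test on protein-coding genes only (adjusted p = 0.0448), in which 4.11% of genes were called. Its log2 change stayed between 0.46 and 0.60 over all of them, with adjusted p up to 0.306.

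**Figure D2:**
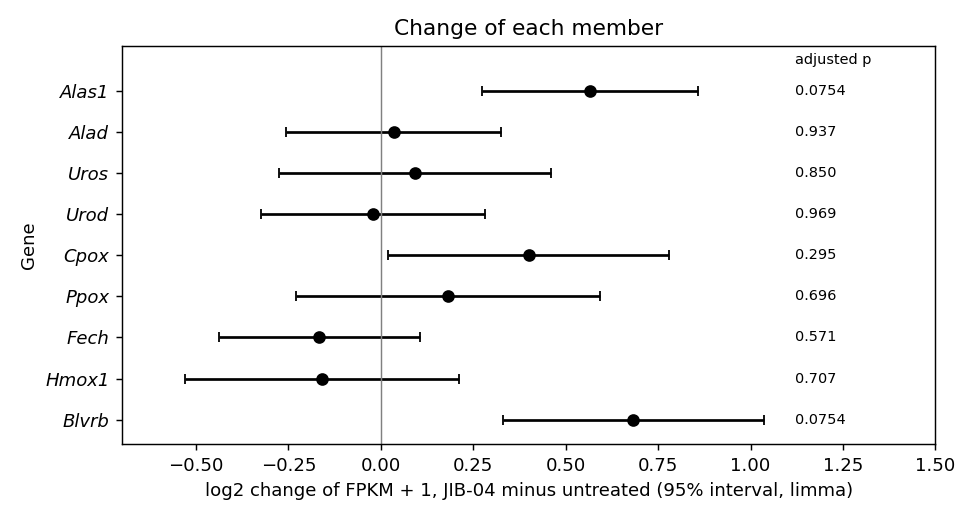
Log2 change of FPKM + 1 (JIB-04 minus untreated) for each member, with limma's 95% interval and the adjusted p at the right. The intervals of Alas1, Cpox and Blvrb lie above 0 and those of the other 6 include 0; no adjusted p is under 0.05.

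Alad, the cytosolic enzyme that condenses the ALAS product to porphobilinogen (ENSMUSG00000028393, chromosome 4, 62427406 to 62438155, minus strand), had 134 and 138 FPKM in untreated and 143 and 135 in JIB-04 liver. The groups overlapped. The log2 change was 0.04 (95% interval -0.26 to 0.33, limma adjusted p = 0.937). In untreated liver Alas1 and Alad were level, at 136 ± 1.92 and 136 ± 2.84 FPKM. The ratio of Alas1 to Alad was 1.03 and 0.980 in untreated libraries and 1.45 and 1.46 in JIB-04 libraries. This ratio is taken within a library, so library scaling does not enter it, and the groups did not overlap. The groups also did not overlap for the ratios of Alas1 to Uros, Urod and Fech, but overlapped for those to Cpox and Ppox. Alas1 over Cpox was 5.12 and 6.59 in untreated and 6.26 and 6.67 in JIB-04 libraries. Alas1 over Ppox was 37.73 and 27.51, then 47.98 and 34.96. These ratios were not tested, and no share over all genes was worked out for them. Alas1 is in each ratio and was itself without overlap, as were 46.4% of all tested genes. The ratios are thus not separate evidence from the values of Alas1.

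The next enzymes of the cytosolic branch overlapped between groups. Uros (ENSMUSG00000030979, chromosome 7, 133287972 to 133311801, minus strand), which closes the porphyrin ring, had 4.03 and 5.35 FPKM in untreated and 4.66 and 5.41 in JIB-04 liver. The lower value of each group was that of animal 1, and the log2 change was 0.09 (interval -0.28 to 0.46, limma adjusted p = 0.850). Uros overlaps Bccip, on the opposite strand, by 740 bases. Bccip had 1730 to 2376 reads per library against 528 to 723 for Uros, and since the strand setting is not given in the sources used here, reads of the shared stretch cannot be told apart. Urod (ENSMUSG00000028684, chromosome 4, 116847162 to 116851610, minus strand), which trims the side chains of uroporphyrinogen, had 33.0 and 28.4 FPKM in untreated and 30.1 and 30.3 in JIB-04 liver. Both treated values lay between the untreated ones, and the log2 change was -0.02 (interval -0.32 to 0.28, limma adjusted p = 0.969).

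Of the last mitochondrial enzymes 1 was higher and 1 lower in both treated animals, without passing the test. Cpox, coproporphyrinogen oxidase (ENSMUSG00000022742, chromosome 16, 58490655 to 58537999, plus strand), had 26.9 and 20.5 FPKM in untreated and 33.2 and 29.6 in JIB-04 liver. The groups did not overlap, but the untreated animals differed by more than the gap between the groups. The log2 change was 0.40 (SE 0.159, interval 0.02 to 0.78, unadjusted p = 0.0415, limma adjusted p = 0.295), and it was 0.21 without untreated 2 and 0.59 without untreated 1. Ppox, the next oxidase (ENSMUSG00000062729, chromosome 1, 171103563 to 171108760, minus strand), had 3.65 and 4.91 FPKM in untreated and 4.33 and 5.64 in JIB-04 liver. Its groups overlapped (log2 change 0.18, interval -0.23 to 0.59, limma adjusted p = 0.696), and the change was 0.0094 without untreated 1 and 0.35 without untreated 2. It overlaps B4galt3 on the opposite strand by 907 bases, a gene with 149 to 342 reads against 605 to 935 for Ppox.

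Fech (ENSMUSG00000024588, chromosome 18, 64585985 to 64623322, minus strand), the ferrochelatase that completes heme, had 14.1 and 13.2 FPKM in untreated and 12.2 and 11.9 in JIB-04 liver. Both treated animals were below both untreated ones. The means were 13.6 ± 0.615 and 12.0 ± 0.220 FPKM, with a log2 change of -0.17 (interval -0.44 to 0.11, limma adjusted p = 0.571). The ratio of Alas1 to Fech was 9.79 and 10.2 in untreated libraries and 17.0 and 16.6 in JIB-04 libraries, so the first enzyme of the pathway and the last stood further apart on the FPKM scale. The intervals above, for Alad, Uros, Urod, Ppox and Fech, leave room for changes of up to 0.59 on the log2 scale, and the missed threshold does not show that these genes were unaffected.

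Summed over the 7 synthesis members, expression was 353 and 345 FPKM in untreated and 436 and 415 in JIB-04 libraries. Without Alas1 the other 6 summed to 216 and 210 FPKM in untreated and 228 and 218 in JIB-04 libraries, means of 213 ± 3.75 and 223 ± 7.08 (SD, n = 2). Alas1 made up 39.0% and 39.1% of the summed synthesis FPKM in untreated and 47.7% and 47.5% in JIB-04 libraries. The share of Fech was 3.98% and 3.82%, then 2.80% and 2.86%. Alad gave 37.9% and 39.9%, then 32.9% and 32.6%. These sums are descriptions and were not tested.

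**Figure D3:**
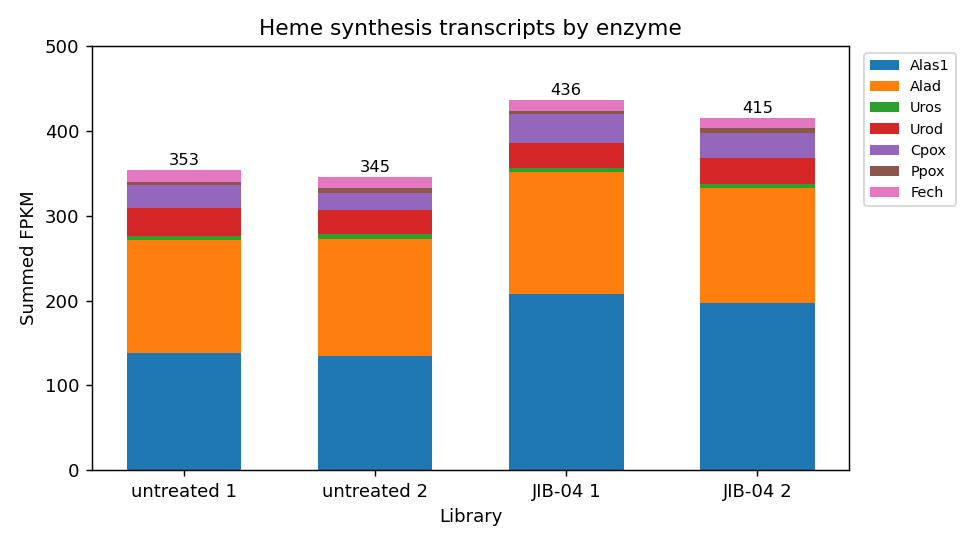
Summed FPKM of the 7 heme synthesis members in each library, stacked by enzyme, with the total above each bar. The totals are 353 and 345 in untreated and 436 and 415 in JIB-04 libraries, and the Alas1 segment at the base goes from 138 and 135 to 208 and 197.

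Among themselves the members spanned a wide range of levels. In untreated liver the order was Alas1 and Alad (both 136 FPKM), Blvrb (39.3), Urod (30.7), Cpox (23.7), Hmox1 (20.7), Fech (13.6), Uros (4.69) and Ppox (4.28). Alas1 and Alad, and Uros and Ppox, were neighbours whose means differed by less than either SD, and Cpox and Hmox1 differed by less than the SD of Cpox. By mean over the 4 libraries Alas1 ranked 268 of 10819 tested genes, within the top 2.48%, and Ppox ranked 5575. In JIB-04 liver the order was the same except that Cpox (31.4 ± 2.57) and Urod (30.2 ± 0.165) changed places, by less than the SD of Cpox.

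Hmox1, the inducible heme oxygenase (ENSMUSG00000005413, chromosome 8, 75820249 to 75827217, plus strand), had 22.1 and 19.2 FPKM in untreated and 16.2 and 20.9 in JIB-04 liver. The groups overlapped, and JIB-04 1 held the lowest value. The log2 change was -0.16 (interval -0.53 to 0.21, limma adjusted p = 0.707). Kupffer cells, the liver macrophages that clear old red cells, are a source of Hmox1 in liver. Their 10 markers, all tested, summed to 496 and 427 FPKM in untreated and to 370 and 461 in JIB-04 libraries, and 0 of the 10 passed. JIB-04 1 was lowest in this sum as well, and its part in the Hmox1 value was not tested.

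Blvrb, a reductase of biliverdin and of flavins (ENSMUSG00000040466, chromosome 7, 27147403 to 27165569, plus strand), had 42.1 and 36.4 FPKM in untreated and 57.6 and 70.1 in JIB-04 liver. Both treated animals were above both untreated ones. The means were 39.3 ± 4.03 and 63.8 ± 8.89 FPKM (SD, n = 2), a 1.62-fold ratio. The log2 change was 0.68 (SE 0.148, interval 0.33 to 1.04, limma adjusted p = 0.0754). It rested on 4299 and 3830 reads in untreated and 6864 and 7163 in JIB-04 libraries. Blvrb passed in 3 of 16 alternatives, which were voom (adjusted p = 0.0379), protein-coding genes only (0.0293) and a mean of at least 5 FPKM (0.0498). Over all 16 the adjusted p ran from 0.0293 to 0.356, and the log2 change from 0.54 to 0.82. The ratio of Blvrb to Hmox1 was 1.90 and 1.89 in untreated and 3.56 and 3.36 in JIB-04 libraries.

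Blvrb is also abundant in red cells, so their markers are given beside it. Of 16 red cell symbols 15 were in the table and 7 were tested, with 0 called. Their summed FPKM was 2959 and 1851 in untreated and 660 and 1788 in JIB-04 libraries, lower in both JIB-04 libraries, where Blvrb was higher. JIB-04 1, with the lowest red cell sum, had the lower Blvrb value of the treated pair. Without the hemoglobin genes the remaining 11 summed to 35.1 and 24.9, then 15.8 and 27.2 FPKM. Alas2, the red cell form of the first enzyme, had 28.0 and 18.8 FPKM in untreated and 10.1 and 20.6 in JIB-04 liver (limma adjusted p = 0.583), below Alas1 in every library. The part of red cells in the value of Blvrb or of any other member was not tested.

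**Figure D4:**
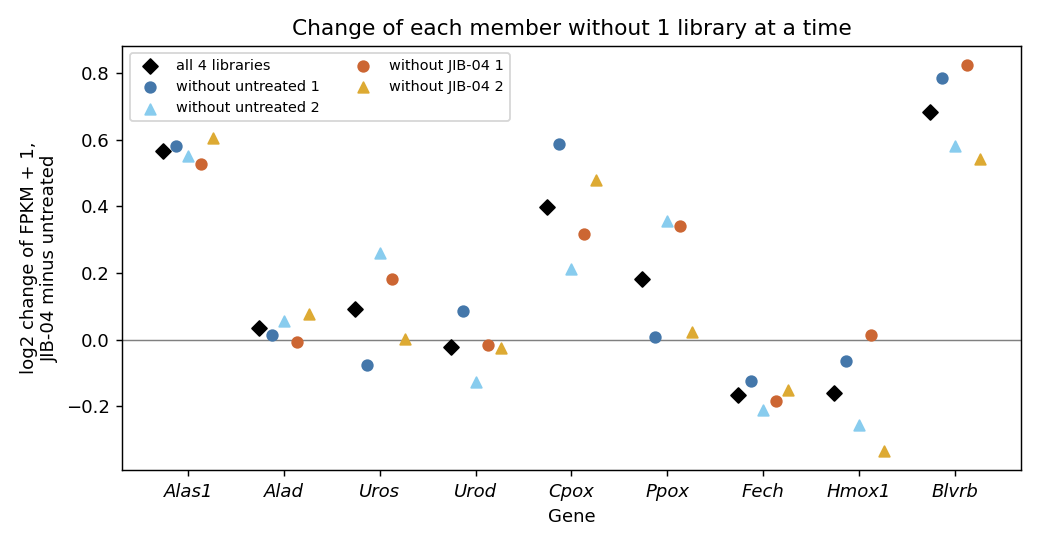
Log2 change of FPKM + 1 (JIB-04 minus untreated) of each member with all 4 libraries (black diamonds) and without 1 library at a time (coloured points). Alas1 stays between 0.53 and 0.60 and Blvrb between 0.54 and 0.82, while Alad, Uros, Urod and Hmox1 have points on both sides of 0.

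The transporters and helper enzymes of the pathway, a list of 22 genes for mitochondrial import, iron-sulfur supply and heme maturation, counted 20 tested genes, of which 1 was called higher and 0 lower, where 1.53% of all tested genes were called higher. Its median log2 change was 0.02, against 0.01 over all tested genes, and ran from -0.045 to 0.093 over the alternatives. Slc25a37, or mitoferrin-1, which carries iron into the mitochondrion, rose from 10.3 and 11.8 to 23.4 and 21.7 FPKM (log2 change 0.96, limma adjusted p = 0.0178). Both treated values were about level and above both untreated ones. The call ended without untreated 1 (adjusted p = 0.0731), without JIB-04 1 (0.138), without JIB-04 2 (0.123) and without the filter on low values (0.181), and it held in 12 of 16 alternatives. Its paralog Slc25a28, mitoferrin-2, had 5.96 and 6.28 FPKM in untreated and 5.16 and 5.38 in JIB-04 liver (adjusted p = 0.538; chosen after its values were seen).

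Other list members of low p did not pass. Pgrmc1, a heme-binding membrane protein that partners P450s, had 624 and 639 FPKM in untreated and 983 and 1085 in JIB-04 liver (limma adjusted p = 0.0606), and passed with voom (0.0358). Fdxr, which feeds electrons to mitochondrial P450s and iron-sulfur assembly, had 6.17 and 6.06 FPKM, then 8.52 and 10.2 (adjusted p = 0.105). Slc48a1, a heme transporter, had 20.7 and 21.4, then 26.3 and 31.8 (adjusted p = 0.178). For these 3 genes, named for their low p, the groups did not overlap, which held for 46.4% of all tested genes. Slc25a38, the glycine carrier that supplies ALAS, was at 8.01 and 7.76 and at 8.0 and 8.74 FPKM (adjusted p = 0.833; chosen after its values were seen).

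For heme scavenging, heme oxygenase 2, and bilirubin formation and disposal, 1 list counted 10 tested genes. Of these 2 were called higher and 0 lower, beside 1.53% and 0.619% of all tested genes. The median log2 change was 0.21, and it was 0.37 without untreated 1, 0.011 without untreated 2 and 0.048 with TPM without abundant genes. Ugt1a1, which conjugates bilirubin, rose from 24.3 and 19.7 to 43.8 and 38.1 FPKM (log2 change 0.87, limma adjusted p = 0.0407). It held in 8 of 16 alternatives and ended without any 1 of the 4 libraries (adjusted p 0.0536 to 0.188), without the filter on low values (0.270), with quantile normalization (0.0628), with TPM without abundant genes (0.0528) and with neither trend nor robust moderation (0.0637). Ugt1a genes share their last exons, so its value may hold reads of neighbours. Abcc3, an exporter of bilirubin conjugates toward blood, rose from 59.9 and 41.9 to 160 and 150 FPKM (log2 change 1.60, adjusted p = 0.0125). The Abcc3 call ended without JIB-04 1 (0.149), without JIB-04 2 (0.163) and without the filter on low values (0.176). Abcc2, the exporter toward bile, had 43.8 and 40.6, then 64.1 and 54.2 FPKM (adjusted p = 0.151). Hp, haptoglobin, which binds free hemoglobin, had 3124 and 1857, then 3190 and 3108 FPKM (adjusted p = 0.563). Hpx, hemopexin, which binds free heme, had 4401 and 2885, then 4777 and 4115 FPKM (adjusted p = 0.604; chosen after its values were seen). For both genes untreated 2 was the lowest library. Blvra, which reduces the main biliverdin isomer, was level at 6.05 and 6.28, then 5.13 and 6.40 FPKM (adjusted p = 0.832), and Hmox2, the constitutive oxygenase, was at 15.8 and 12.0, then 12.7 and 12.0 (adjusted p = 0.720; both chosen after their values were seen).

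Of 21 tested regulators of Alas1, Hmox1 or heme supply 0 were called by limma, and voom called 1. At an unadjusted p under 0.05 there were 4, of which 2 were higher and 2 lower, near the 15.5% of all tested genes. Their median log2 change was 0.04, and ran from -0.033 to 0.052 over the alternatives. Ppargc1a, a coactivator of Alas1 in fasting, had 1.49 and 1.71 FPKM in untreated and 0.860 and 0.715 in JIB-04 liver (limma adjusted p = 0.126, voom 0.0437), lower while Alas1 was higher. Foxo1, which acts with it, had 5.75 and 4.26, then 3.27 and 3.69 FPKM (adjusted p = 0.273). Esrra had 6.28 and 7.66, then 9.41 and 8.61 (adjusted p = 0.304), and Keap1, which holds the Hmox1 activator NRF2 in check, 8.0 and 8.05, then 10.6 and 9.44 (adjusted p = 0.320).

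Heme-binding proteins other than P450s counted 18 tested genes, of which 0 were called higher and 1 lower, where 0.619% of all tested genes were called lower. The list's median log2 change was -0.08. Steap3, a heme-containing ferric reductase, fell from 4.17 and 3.69 to 1.52 and 1.55 FPKM (log2 change -0.96, limma adjusted p = 0.0195), a call that ended without any 1 of the 4 libraries (0.0539 to 0.143) and without the filter on low values (0.177). Tdo2, the liver tryptophan dioxygenase whose activity depends on heme supply, had 289 and 289, then 209 and 217 FPKM (adjusted p = 0.151). Cyb5a, the cytochrome b5 that helps P450s, had 345 and 325, then 468 and 538 (adjusted p = 0.106). Fads2, a desaturase with a cytochrome b5 domain, had 225 and 188, then 128 and 129 (adjusted p = 0.0674, voom 0.0291). The groups did not overlap for any of these 4 genes, which were named for their low p, and 46.4% of all tested genes had no overlap.

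**Figure D5:**
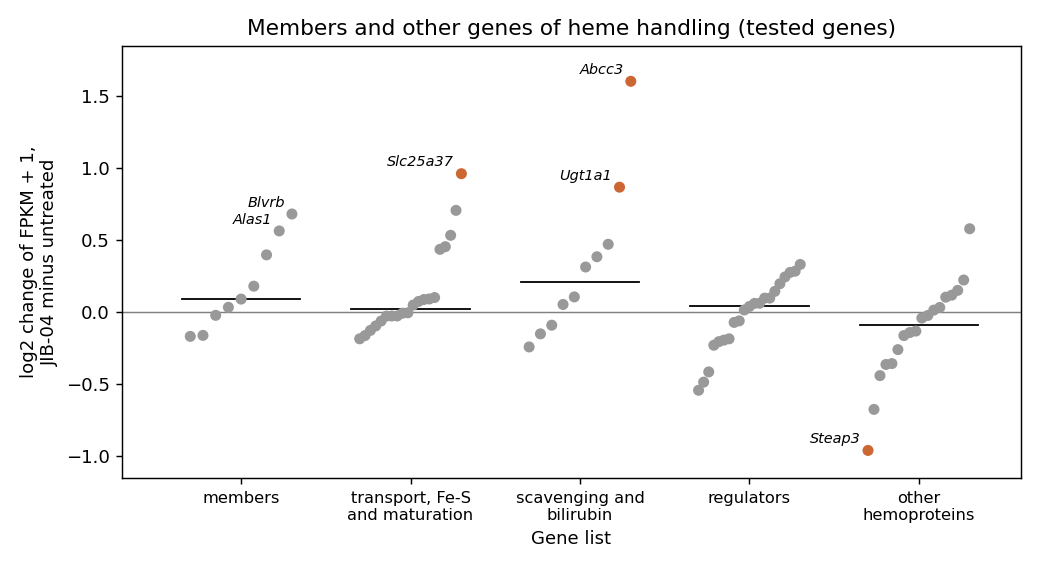
Log2 change of FPKM + 1 (JIB-04 minus untreated) of the tested genes in each list, ordered by size, with orange for genes called by limma (adjusted p under 0.05), gray for the rest and a line at each list's median. Slc25a37, Abcc3 and Ugt1a1 are called higher and Steap3 lower; Alas1 and Blvrb are named for reference and were not called.

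P450s are the main users of new heme in hepatocytes. Over 100 protein-coding P450 genes the summed FPKM was 11016 and 10115 in untreated and 22351 and 22540 in JIB-04 libraries, a 2.12-fold ratio of means (exact two-sided permutation p = 0.333, the smallest that 2 against 2 allow). For each FPKM of Alas1 there were 79.9 and 74.9 FPKM of P450 in untreated and 107 and 114 in JIB-04 libraries. The 3 P450s of largest increase in mean FPKM, Cyp3a11, Cyp2c29 and Cyp2a5, were picked from these same values. Without them the sum was 9310 and 8310, then 9563 and 9815, and a smaller gap follows from that choice. The P450 sum was thus higher in ratio than Alas1 (1.48-fold), and the 2 ratios were not tested against each other.

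The 3 protein-coding genes whose values lay nearest to the pattern of Alas1 were Dnajb9, an endoplasmic reticulum chaperone, Slc6a13, a transporter of GABA and taurine, and Shc1, a signalling adaptor. Nearness was the root mean squared distance of log2(FPKM + 1), centred on each gene, over the 4 libraries. It was 0.018 for Dnajb9, 0.025 for Slc6a13 and 0.028 for Shc1. Dnajb9 had 21.7 and 21.1 FPKM in untreated and 33.1 and 32.2 in JIB-04 liver (limma adjusted p = 0.0589). With 4 libraries many genes come close to any pattern, and this is a description.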

How the data were processed

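Expression was read from the authors' FPKM, deposited as 1 table with gene lengths in bases, GRCm39 coordinates and 1 column for each of 4 libraries (build per the submitters' processing notes). For aligner, counter, annotation and strand, the choice is not given in the sources used here. Multiplied by gene length, 100% of values fell on whole reads (tolerance 0.01). Genes with a mean of at least 1 FPKM (10819) were tested across the whole table on log2(FPKM + 1) with limma 3.58.1 in R 4.3.3 (trend and robust, two-sided, 2 residual degrees of freedom, Benjamini-Hochberg). That scale understates changes of low genes. Trend and robust moderation draw the variance of a gene toward that of other genes of similar level. The p-values and intervals of a gene thus do not rest on its own 4 values alone. A fold is the ratio of group means of FPKM. On simulated libraries this test recovered most of the changed genes, but every planted change was larger than that of any member. Recovery of changes as small as those of the members was not tried. In every round the share of false calls was above the nominal level, so calls near the threshold are less certain than their adjusted p reads. Alternatives are given in the closing section.

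Members, lists and naming rule (all members, called genes and the 4 of lowest p of each list, and 3 genes near Alas1) were chosen with earlier results of these data known. Alas1, Alad, Uros, Ppox, Hmox1 and Blvrb shared 0% of 50-base words with transcripts of other genes (GENCODE vM21 sequences), and Urod, Cpox and Fech 1.99% to 2.36%. Marker lists of bile duct, endothelial, stellate, neutrophil and zonal hepatocyte genes were also summed. Some genes of the pathway are not analysed here.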

Additional observations from a re-analysis of the deposited data

How the results depend on the processing

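Since 0 members were called by limma above, no alternative could lose a call. Of 142 member values under alternatives 132 kept their direction and side of the threshold, 6 changed sign and 4 newly passed. The 4 were Alas1 (log2 change 0.57) on protein-coding genes only, and Blvrb (0.68 each) there, with voom and at a mean of at least 5 FPKM, a filter that removed Uros and Ppox. Alad was -0.0056 on TPM that left out the 50 most abundant genes and those of the mitochondrial genome, and -0.072 with quantile normalization. Leaving out 1 library gave -0.0077 to 0.078 for Alad, -0.076 to 0.26 for Uros, -0.13 to 0.085 for Urod and -0.33 to 0.014 for Hmox1; a lone library was assumed to vary like the other group. Members called numbered 1 at a mean of at least 5 FPKM, 1 with voom, 2 on protein-coding genes and 2 at an adjusted p under 0.1. The cause of these differences was not tested.

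All genes called numbered 232 (165 higher, 67 lower), 20 without the filter, 400 with voom (242 higher, 158 lower), 397 on protein-coding genes, 464 at an adjusted p under 0.1, and 23 to 156 without 1 library. Among transport and maturation genes 1 was called, 0 without the filter, 2 at a mean of at least 5 FPKM, with TPM without abundant genes, with voom and on protein-coding genes, and 0 to 1 without 1 library. Of scavenging and bilirubin genes 2 were called, 0 without the filter, 1 each with TPM without abundant genes, quantile normalization and neither trend nor robust moderation, and 0 to 1 without 1 library. Of regulators 0 were called, and 1 each with voom and on protein-coding genes. Of other hemoproteins 1 was called, 0 without the filter, 2 each with TPM without abundant genes, quantile normalization, voom and protein-coding genes, and 0 without any 1 library. The P450 ratio ranged from 2.00 to 2.22.

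The replicate number as a block gave 357 calls and 0 members called. Nothing in the labels ties same-numbered animals, and their deviations from the group means correlated at -0.049 across 10819 genes, so the numbers were taken as names.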

Other observations

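A long noncoding RNA gene, 4930500F10Rik, lies on the strand opposite Alas1 and overlaps it by 695 bases. It was below the filter on low values and was chosen after its values were seen. It held 2 and 2 reads in untreated 1 and 2 and 13 and 15 reads in JIB-04 1 and 2, or 0.0446 and 0.0433 FPKM against 0.248 and 0.334. The strand setting is not given in the sources used here, so reads of Alas1 in the shared stretch cannot be told apart from reads of this gene.

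Markers of hepatocyte zones were also measured, and the genes named here were chosen after their values were seen. Of 5 tested pericentral markers 1 was called higher by limma, beside 1.53% of all tested genes. The other 4 had lower means without passing. Oat, an ornithine aminotransferase, rose from 153 and 132 to 271 and 322 FPKM (limma adjusted p = 0.0248). Slc1a2, a glutamate transporter, had 11.4 and 9.77 FPKM in untreated and 6.69 and 6.66 in JIB-04 liver, with no overlap (adjusted p = 0.0730). Absence of overlap held for 46.4% of all tested genes, and for 21.8% downward. Glul, the defining pericentral gene, had 281 and 232 FPKM in untreated and 190 and 234 in JIB-04 liver (adjusted p = 0.513). Of 8 tested periportal markers 0 were called by limma, and 4 had an unadjusted p under 0.05 (15.5% of all tested genes did), of which Ass1, Gls2 and Sds were lower and Cyp2f2 was higher. The pericentral list summed to 4336 and 3079 FPKM, then 3361 and 3432, and the periportal list to 2896 and 3021, then 2257 and 2567.

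Of the other cell types, endothelial markers summed to 81.2 and 64.3 FPKM in untreated and 66.4 and 70.0 in JIB-04 liver, stellate markers to 52.2 and 40.4, then 37.6 and 34.2, and bile duct markers to 40.1 and 34.4, then 36.1 and 43.8. Neutrophil markers summed to 26.6 and 7.38, then 44.4 and 71.6 FPKM. Most of the JIB-04 sum was S100a8, at 6.68 and 2.40, then 36.3 and 63.0 FPKM (limma adjusted p = 0.131), and of the 6 markers 3 had higher and 3 lower means. S100a9 had 18.7 and 4.01, then 7.51 and 8.45 FPKM (adjusted p = 0.965). Tested were 6 endothelial, 4 stellate, 1 bile duct and 2 neutrophil genes. None of these 4 lists had a gene called by limma, where 2.14% of all tested genes were called. At an unadjusted p under 0.05 there was 1 stellate gene and 1 neutrophil gene, where 15.5% of all tested genes reached that p.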
